A study of Mus musculus with 26 samples.

Results

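The 9 genes described here, Cx3cr1, P2ry12, Tmem119, Aif1, Csf1r, Fcrls, Siglech, Emr1 and Ptprc, are commonly used to recognise microglia, the resident immune cells of the retina. They were picked by name, and each matched 1 Ensembl identifier among the 37991 genes of the count table. Expression was followed in 26 RNA-seq libraries from mice homozygous for rd10, a mutation of the rod phosphodiesterase gene Pde6b that leads to loss of rod photoreceptors. Mice received saline or an inhibitor of a chromatin enzyme by injection from postnatal day PN9, and retinas were collected at PN24. Whole retinas came from B6.CXB1-Pde6brd10/J mice in 4 experiments, each with controls of its own. DZNep (4 control and 2 treated libraries) and UNC1999 (3 and 3) act on EZH2, UNC0642 (2 and 2) on G9A/GLP and Romidepsin (3 and 3) on histone deacetylases. In the fifth experiment the LSD1 inhibitor GSK2879552 was given to rd10 mice crossed to B6.Cg-Tg(Nrl-EGFP)1Asw/J, in which the Nrl promoter drives EGFP in rods, and FACS-sorted rods were sequenced (2 control and 2 treated libraries). By the labels all controls received saline. By the study's methods UNC1999 was dissolved in a DMSO-based diluent, and the sources differ on whether its controls received that diluent or saline. Every animal carried rd10, in treated and control groups alike, and no healthy retina entered any comparison. The labels number the samples as biological replicates without naming the animals, so p-values measure the spread between these libraries.

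Microglia keep contact with neurons through surface receptors and clear debris and dying cells. Their survival depends on signalling through the receptor encoded by Csf1r, and in a healthy adult retina they lie mostly in the synaptic layers. When photoreceptors die, microglia move towards the outer retina, multiply and take up dying rods, and genes of their resting state are known to behave differently from genes of their activated state. In RNA from a whole retina, fewer microglia and less RNA per microglial cell cannot be told apart.

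The promoters of 4 of the genes are shown because their levels differed after the 2 EZH2 inhibitors. There Cx3cr1 and Aif1 had lower fitted values, as most of the other members did, whereas P2ry12 and Siglech had values near 0. Each sequence is from RefSeq (GRCm38.p6) and runs from 250 bases before the annotated start to 10 bases after it. Capitals mark GAGGAA, a core motif of the myeloid factor PU.1, or its reverse complement.
Cx3cr1, chr9:120068287-120068546, minus strand: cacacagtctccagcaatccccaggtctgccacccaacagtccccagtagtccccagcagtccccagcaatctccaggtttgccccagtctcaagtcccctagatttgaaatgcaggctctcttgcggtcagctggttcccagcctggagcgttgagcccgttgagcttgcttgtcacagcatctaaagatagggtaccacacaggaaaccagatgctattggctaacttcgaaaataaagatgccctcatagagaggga
Aif1, chr17:35176043-35176302, minus strand: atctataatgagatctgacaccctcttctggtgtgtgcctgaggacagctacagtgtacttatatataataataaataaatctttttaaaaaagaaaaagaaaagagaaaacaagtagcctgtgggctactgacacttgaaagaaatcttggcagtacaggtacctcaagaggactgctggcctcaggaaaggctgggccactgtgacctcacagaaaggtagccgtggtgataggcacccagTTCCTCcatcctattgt
P2ry12, chr3:59262976-59263235, minus strand: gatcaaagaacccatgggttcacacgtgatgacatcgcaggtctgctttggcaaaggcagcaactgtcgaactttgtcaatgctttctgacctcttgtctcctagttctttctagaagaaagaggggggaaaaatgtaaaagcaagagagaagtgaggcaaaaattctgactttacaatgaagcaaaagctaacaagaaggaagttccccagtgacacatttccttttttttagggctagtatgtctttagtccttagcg
Siglech, chr7:55767934-55768193, plus strand: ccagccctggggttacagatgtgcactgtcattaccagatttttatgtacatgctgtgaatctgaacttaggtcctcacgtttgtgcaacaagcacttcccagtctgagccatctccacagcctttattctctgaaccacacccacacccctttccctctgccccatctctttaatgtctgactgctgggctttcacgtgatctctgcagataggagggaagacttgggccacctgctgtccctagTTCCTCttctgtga
Counted from the start, the motif lay on the minus strand at -7 to -2 in Aif1 and at -4 to 2 in Siglech. Searched on both strands, it was also found in the promoter of Fcrls (-144 to -139) and in 1 of the 2 promoters of Ptprc (-158 to -153). It was thus in 4 of the 7 promoters of the 6 member genes with a promoter sequence, against 28.3% of 32851 mouse promoters of the same length (300 bases). The longer form GAGGAAGT (3.2% of promoters) and a composite ETS-IRF motif (the ETS core GGAA, then any 2 bases, then GAAA, 2.72%) were in none of these windows. The motif was present in 1 gene of each printed pair, but the printed genes do not stand for all members. Fcrls and Ptprc, not printed, had it in a promoter and had lower fitted values after both EZH2 inhibitors. A relation of the motif to the changes was not tested. Tmem119, Csf1r and Emr1 are described by their RNA alone.

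All 9 genes were measured in every control retina, at very different levels. On a per-length scale (CPM, counts per 1000000 counts of a library, scaled by TMM and divided by exon kilobases), the median over the 12 control retinas was highest for Csf1r (12.3), followed by Cx3cr1 (8.81), Fcrls (8.42), Emr1 (3.68), Tmem119 (3.59), Aif1 (2.89), P2ry12 (2.75), Ptprc (1.21) and Siglech (0.752). Cx3cr1 and Fcrls, Emr1 and Tmem119, and Aif1 and P2ry12 overlapped widely within their own ranges and cannot be ordered. Ranges of all other neighbours in this order overlapped as well, so only the medians are ranked. In the UNC0642 controls Fcrls (23.2 and 24) was above Csf1r (22.6 and 16.4). Counts at Csf1r may also include reads of another gene, as described below. The lowest raw count of any member in a control retina was 20, for Siglech. Levels varied between control libraries by 3.1-fold for Tmem119 and Cx3cr1 and by 8.08-fold for Ptprc. Controls of the UNC0642 experiment were the highest of the 4 control groups for 7 of the 9 genes, and those of the Romidepsin experiment for P2ry12 and Siglech. The same UNC0642 controls had the lowest summed CPM of 11 rod markers, 9089 and 9281, against 15560 to 37000 in the other control retinas. Each treatment was therefore compared with controls of its own experiment.

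**Figure D1:**
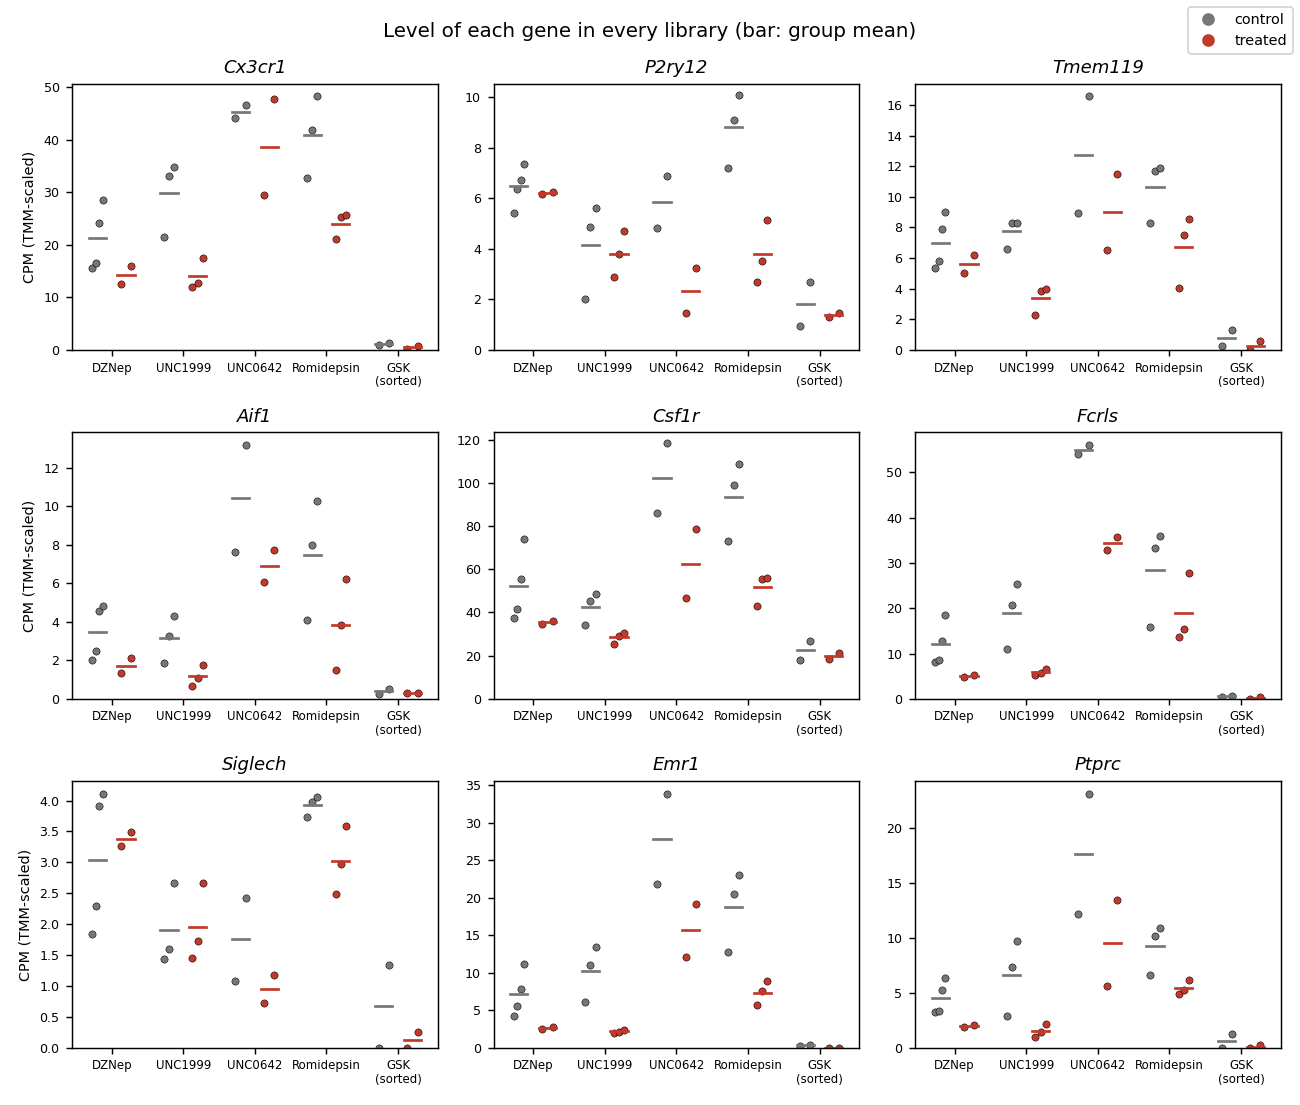
TMM-scaled CPM of each gene in every library on linear axes from 0, with controls in grey, treated libraries in red and bars at group means. Emr1 lies lower in all treated retinas than in the controls of the same experiment, Siglech and P2ry12 overlap between groups in the DZNep and UNC1999 experiments, and in sorted rods (labelled GSK) Csf1r alone stays above 18 CPM.

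In the DZNep experiment, 3 of the 9 genes fell by more than 1 on the log2 scale: Emr1, Fcrls and Ptprc. All 3 encode surface proteins: Emr1 (NCBIM37, chr17:57498109-57622952, plus strand) the macrophage antigen F4/80, Fcrls (chr3:87054680-87067660, minus strand) an Fc receptor-like protein characteristic of microglia, and Ptprc (chr1:139959438-140071882, minus strand) the leukocyte antigen CD45. Emr1 was at 11.2, 5.57, 7.8 and 4.24 CPM in controls and at 2.48 and 2.75 CPM in treated retinas, a log2 fold change of -1.47 (SE 0.37, adjusted p = 0.0238, edgeR quasi-likelihood test with Benjamini-Hochberg adjustment over 16477 genes). Fcrls was at 18.6, 8.14, 12.8 and 8.56 CPM in controls and at 4.87 and 5.21 CPM after DZNep (log2 fold change -1.26, SE 0.33, adjusted p = 0.0275 in the edgeR fit). Ptprc went from 6.37, 3.36, 5.26 and 3.21 CPM to 1.87 and 2.08 CPM (log2 fold change -1.21, SE 0.32, adjusted p = 0.0259 in the edgeR fit). For each of the 3, control replicate 1 was the highest library and both treated libraries were below all controls. Over all genes tested, 0.686% were called lower by this rule (adjusted p under 0.05 and a log2 fold change below -1).

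Csf1r, the receptor for CSF1 and IL-34, was also below every control after DZNep, at 34.8 and 36.2 CPM against 73.8, 41.4, 55.6 and 37.2 CPM, but did not pass the test (log2 fold change -0.55, adjusted p = 0.136 by edgeR). In all, 4 of 9 genes had both treated libraries below all 4 controls, a pattern seen in 21.5% of genes tested. Cx3cr1 (chr9:119957811-119977400, minus strand), the receptor for the neuronal chemokine fractalkine, had a log2 fold change of -0.55 with overlapping groups. Aif1, the calcium-binding protein IBA1 used to stain microglia, had -0.94 and Tmem119, a membrane protein of resident microglia, -0.34, again with overlap. P2ry12, the ADP receptor that directs microglial processes to injury, stayed between 5.43 and 7.34 CPM in all 6 libraries (log2 fold change -0.06, SE 0.14). Siglech, a sialic acid-binding lectin, was at 3.27 and 3.5 CPM after DZNep, inside the control range of 1.84 to 4.11 CPM. The median log2 fold change of the 9 genes was -0.55, against 0.00 for all genes. The calls for Emr1, Fcrls and Ptprc depended on which library was left out, in fits whose share of all genes called was not computed. Without control replicate 3, treated replicate 1 or treated replicate 2, none of the 9 was called, and without control replicate 1, 2 or 4 there were 2, 3 and 4.

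UNC1999, the second EZH2 inhibitor, was followed by lower values of 7 of the 9 genes in all 3 treated libraries, with no overlap with controls. Genes of this pattern made up 13.6% of those tested. Emr1 was the 1 member that passed the test. It was at 11, 13.5 and 6.09 CPM in controls and at 1.99, 2.14 and 2.35 CPM in treated retinas (log2 fold change -2.23, SE 0.29, adjusted p = 0.0278, edgeR quasi-likelihood test over 15775 genes), and 0.0697% of all genes were called lower. By the fitted value, the level of Emr1 in controls was 4.71-fold that in treated retinas.

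The other 6 genes of this group missed the threshold. Ptprc was at 9.7, 7.38 and 2.86 CPM in controls and at 0.994, 2.18 and 1.45 CPM after UNC1999 (log2 fold change -2.08, SE 0.46, adjusted p = 0.0611 in the edgeR fit). Fcrls was at 20.7, 25.4 and 11 CPM in controls and at 5.34, 6.6 and 5.59 CPM after treatment (-1.71, adjusted p = 0.0516 by edgeR). In both genes, as in Emr1, control replicate 3 was the lowest control yet lay above the treated libraries. Aif1 (-1.39), Tmem119 (-1.21), Cx3cr1 (-1.09) and Csf1r (-0.59) had edgeR adjusted p-values between 0.0533 and 0.0947. P2ry12 was at 2, 4.87 and 5.62 CPM in controls and at 4.72, 3.78 and 2.89 CPM after UNC1999, and Siglech at 1.44, 1.6 and 2.67 CPM against 2.67, 1.46 and 1.72 CPM. These last 2 genes overlapped fully between groups, with log2 fold changes of -0.16 (SE 0.36) and 0.02 (SE 0.33). The median of the 9 genes was -1.21, against 0.00 over all genes.

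The number of the 9 genes called in the UNC1999 experiment changed whichever of the 6 libraries was left out. The share of all genes called in those fits was not computed, so a shift of the 9 genes alone cannot be read from them. Without control replicate 3, 6 of 9 were called. Without any 1 of the other 5 libraries, none was. That control had the lowest summed level of the 9 genes among the UNC1999 controls (92.6 CPM, against 139.7 and 143.9 CPM) and the highest summed level of the rod markers (37000 CPM, against 23070 and 19620 CPM). The likelihood ratio test of edgeR called 6 of the 9 genes, and 1.87% of all genes, lower. DESeq2 also called 6, and 1.46% of all genes.

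After UNC0642, all 9 genes had lower fitted values, with a median log2 fold change of -0.70 against 0.00 for all genes, of which 50.3% were below 0, but the edgeR quasi-likelihood test called none of them and no gene of the 16321 tested (0%). Unadjusted p-values were under 0.05 for 4 of the 9, against 6.8% of all genes lower at that level. Fcrls had the least spread: 54.1 and 56 CPM in controls and 35.7 and 32.9 CPM in treated retinas (log2 fold change -0.68, SE 0.08, adjusted p = 0.224 by the edgeR quasi-likelihood test, 3.68e-05 by its likelihood ratio test and 0.000118 by DESeq2). P2ry12 was at 6.86 and 4.82 CPM in controls and at 3.24 and 1.46 CPM after UNC0642 (log2 fold change -1.29, SE 0.38, adjusted p = 0.299 by edgeR). Emr1 went from 33.8 and 21.8 CPM to 19.1 and 12.1 CPM and Csf1r from 118 and 85.9 CPM to 78.7 and 46.5 CPM, with log2 fold changes of -0.83 and -0.70. In these 4 genes the groups did not overlap, as in 25.2% of all genes tested. In all 9 genes treated replicate 2 was below treated replicate 1.

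Cx3cr1 differed least after UNC0642: 46.5 and 44.1 CPM in controls, 47.7 CPM in treated replicate 1 and 29.5 CPM in treated replicate 2 (log2 fold change -0.23, SE 0.20). Without treated replicate 2 its value was 0.07. Tmem119 was at 16.6 and 8.94 CPM in controls and 11.5 and 6.56 CPM after treatment, and its log2 fold change of -0.49 became 0.03 without control replicate 1. The rod markers summed to 9454 CPM in treated replicate 1, close to the controls, and to 14230 CPM in treated replicate 2, where the summed level of the 9 genes was also lowest (141.4 CPM, against 218.3 CPM in replicate 1).

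After Romidepsin, all 9 genes again had lower fitted values (median log2 fold change -0.77, against -0.01 for all genes, of which 51.1% were below 0), and 6 of 9 had every treated library below every control, against 12.5% of genes tested. By the edgeR quasi-likelihood test over 16049 genes none passed (0.156% of all genes were called lower), although unadjusted p-values were under 0.05 for 6 genes (9.46% of all genes were lower at that level) and both the likelihood ratio test (1.35% of all genes called lower) and DESeq2 (1.04%) called Emr1 and P2ry12. Emr1 was at 12.7, 23 and 20.5 CPM in controls and at 8.88, 7.5 and 5.64 CPM after Romidepsin (log2 fold change -1.36, SE 0.26, adjusted p = 0.0555 in the edgeR fit). P2ry12 was at 9.1, 7.21 and 10.1 CPM in controls and at 5.15, 3.53 and 2.7 CPM in treated retinas (log2 fold change -1.22, SE 0.26, adjusted p = 0.0656 in the edgeR fit). Both genes had a gap between the lowest control and the highest treated library.

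Csf1r was at 72.9, 98.8 and 109 CPM in Romidepsin controls and at 55.7, 56 and 43 CPM in treated retinas (log2 fold change -0.86, adjusted p = 0.0601 by edgeR). Cx3cr1 was at 32.6, 48.2 and 41.9 CPM against 25.7, 25.2 and 21.2 CPM (-0.77, adjusted p = 0.0656 by edgeR). The receptors for CSF1 and fractalkine thus lay in separate ranges before and after treatment, without passing the test. Ptprc (-0.77) and Siglech (-0.37) were also separated, Siglech by 3.74 CPM in the lowest control against 3.59 CPM in the highest treated library. Aif1 (-0.97), Tmem119 (-0.67) and Fcrls (-0.59) overlapped: Aif1 ranged from 4.11 to 10.3 CPM in controls and from 1.49 to 6.23 CPM after Romidepsin. Markers of inner retinal neurons were lower in the same libraries (10 of 10 in fitted value, median log2 fold change -0.51), with 1 passing the test. Among all genes 0.174% passed as lower. RPE markers (6 of 7 lower, median -0.83), cone markers (6 of 7, -0.72), Müller glia markers (5 of 6, -0.56) and blood markers (5 of 5, -0.56) were also lower in fitted value, with none passing (edgeR quasi-likelihood test). The part of any of these in the values of the 9 genes was not tested.

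**Figure D2:**
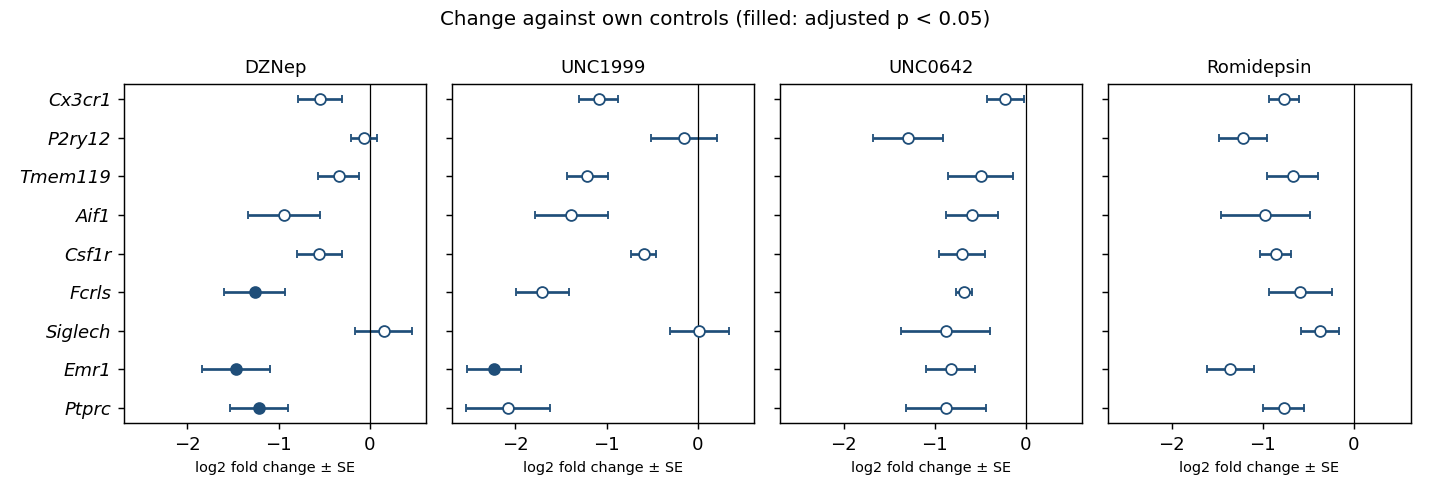
Log2 fold change (treated over own controls) of each gene with its standard error in the 4 whole-retina experiments, where filled points passed an adjusted p of 0.05 in the edgeR quasi-likelihood test. Of the 36 values, 34 are below 0, and P2ry12 lies near 0 after DZNep (-0.06) and UNC1999 (-0.16) but at -1.29 after UNC0642 and -1.22 after Romidepsin.

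Emr1 and Csf1r were the 2 genes whose treated libraries were below all controls in each of the 4 whole-retina experiments. The share of all genes with that pattern in all 4 was not computed. Csf1r passed the edgeR quasi-likelihood test in none of the 4, and Emr1 after DZNep and UNC1999 only. Emr1 had the most negative value of the 9 genes in the DZNep, UNC1999 and Romidepsin experiments, whereas after UNC0642 it was P2ry12. The changes were then compared between treatments in a fit to all 22 retina libraries, in which each change was taken against its own controls. Library names of the UNC1999 experiment began with H-50 and those of the other whole retinas with G-981, so comparisons with UNC1999 cross these series. The part of the series in the differences was not tested. In 6 pairs of treatments and 54 tests of the 9 genes, no difference passed an adjusted p of 0.05 over 17274 genes (smallest 0.179, edgeR quasi-likelihood test). All genes whose change differed made up 0.00579% of those tested for DZNep against UNC1999, 0.0232% for DZNep against UNC0642, 0.289% for DZNep against Romidepsin, 0.0116% for UNC1999 against UNC0642, 5.11% for UNC1999 against Romidepsin and 0.0174% for UNC0642 against Romidepsin. A missed threshold does not show that 2 treatments acted alike.

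The differences below are examples chosen after their values were seen, and none passed the test. Each change of P2ry12 enters 2 of the 4 differences given first, so these are not independent. The log2 fold change of P2ry12 was higher by 1.16 after DZNep than after Romidepsin (interval of 2 SE, 0.26 to 2.07, adjusted p = 0.25 by edgeR) and by 1.24 than after UNC0642 (0.19 to 2.29, adjusted p = 0.324 by edgeR). After UNC1999 it was higher by 1.06 than after Romidepsin (0.15 to 1.96, adjusted p = 0.179 by edgeR) and by 1.13 than after UNC0642 (0.08 to 2.18, adjusted p = 0.403 by edgeR). The differences of 4 other genes were in the opposite direction, with lower values after UNC1999: Emr1 by -1.40 and Cx3cr1 by -0.86 against UNC0642, and Fcrls by -1.12 and Ptprc by -1.31 against Romidepsin. Between the EZH2 inhibitors the difference for P2ry12 was 0.11 (-0.81 to 1.02) and for Emr1 0.77 (-0.30 to 1.85, DZNep less UNC1999), and between UNC0642 and Romidepsin the difference for P2ry12 was -0.08 (-1.11 to 0.96).

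Ratios of members within a library do not depend on its scaling. P2ry12 over Emr1 was 0.572 to 1.28 in DZNep controls and 2.27 and 2.48 after DZNep, and 0.181 to 0.922 in UNC1999 controls and 1.23 to 2.37 after UNC1999. Siglech over Emr1 was 0.331 to 0.541 and then 1.27 and 1.32 in the DZNep experiment, and 0.119 to 0.438 and then 0.681 to 1.34 in the UNC1999 experiment. Both ratios were above all controls of the same experiment in the 5 libraries treated with an EZH2 inhibitor. The P2ry12 ratio went the other way after UNC0642 (0.203 and 0.221 in controls, 0.121 and 0.169 treated) and overlapped after Romidepsin (0.313 to 0.715 against 0.471 to 0.58). Siglech over Emr1 overlapped in both of these experiments. Cx3cr1 over Emr1 was higher in treated libraries than in all controls in each of the 4 experiments, for example 1.38 and 2.03 in UNC0642 controls and 2.44 and 2.49 after UNC0642. These ratios were chosen with the values of the genes known and are given without a test.

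**Figure D3:**
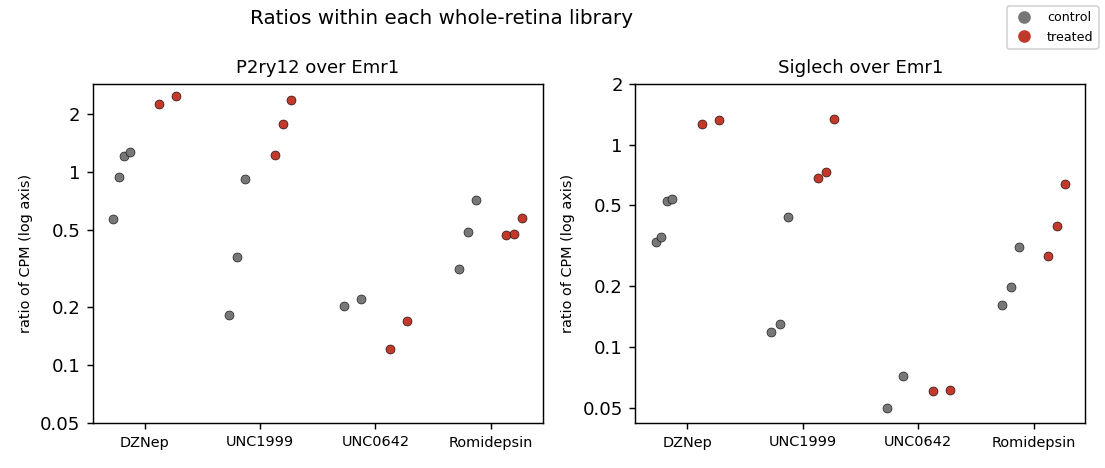
Ratio of P2ry12 to Emr1 and of Siglech to Emr1 (CPM over CPM, log axis) in each whole-retina library, with controls in grey and treated libraries in red. Treated libraries lie above all controls in the DZNep and UNC1999 experiments for both ratios, and P2ry12 over Emr1 lies below the controls after UNC0642.

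Reads at P2ry12 can come from a neighbour. P2ry12 (NCBIM37, chr3:59020193-59066753, minus strand) lies inside the span of Med12l (chr3:58810900-59122332, plus strand), a Mediator subunit gene, with no shared exon bases. Whether reads were counted by strand is not given in the sources used here. Med12l was at 46.4 to 50.9 CPM in DZNep controls and 38.3 to 43.6 CPM in treated retinas, a log2 fold change of -0.24 (adjusted p = 0.0339 by edgeR), and had values of 0.05, -0.06 and -0.44 after UNC1999, UNC0642 and Romidepsin. Its share in the counts of P2ry12 was not tested. P2ry13, a related purinergic receptor gene at chr3:59011818-59014804 inside the same span, was looked at after its values were seen. It had log2 fold changes of -0.09 after DZNep, -0.30 after UNC1999, -1.25 after UNC0642 and -0.90 after Romidepsin, none of which passed the test (edgeR adjusted p = 0.8, 0.587, 0.299 and 0.0952).

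Across the 22 retina libraries, each expressed relative to its own experiment, 7 of the 9 genes went up and down together. Correlations between pairs of these 7 were 0.787 to 0.938 (21 pairs, Pearson's r of log2 CPM), whereas the 15 pairs with P2ry12 or Siglech ranged from 0.085 to 0.618. Against the mean of the other members, r was 0.946 for Csf1r, 0.942 for Emr1, 0.933 for Cx3cr1, 0.914 for Tmem119, 0.887 for Ptprc, 0.872 for Aif1 and 0.862 for Fcrls, but 0.448 for P2ry12 and 0.269 for Siglech. Centring each group on its own mean, which removes the treatment, left 0.717 (Fcrls) to 0.945 (Csf1r) for the 7 genes, with 0.569 to 0.9 for their pairs, and 0.21 for P2ry12 and 0.24 for Siglech. The points share libraries and scaling, and some genes of both kinds had few counts (as low as 10 for Siglech, 11 for Aif1, 16 for Ptprc and 20 for P2ry12), so these values are descriptive. The 5 genes most like the mean of the 9, out of 15366, were Laptm5 (0.979), Unc93b1 (0.978), Mpeg1 (0.976), Hmha1 (0.971) and Pld4 (0.962).

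Other genes of microglia were mostly lower in fitted value as well, with few of them passing the test. Of 15 companion genes, among them the complement genes C1qa, C1qb and C1qc and the receptor gene Trem2, 15 were lower after DZNep (median log2 fold change -0.75), 14 of the 14 tested after UNC1999 (-1.07), 15 after UNC0642 (-0.69) and 14 after Romidepsin (-0.47). Only Ctss, the lysosomal protease cathepsin S, passed, after Romidepsin (-0.89, adjusted p = 0.0493 by edgeR), where 0.174% of all genes were lower at that level. It lost that call without any 1 of 5 of the 6 libraries (all but treated replicate 2; edgeR adjusted p = 0.0345 to 0.178). C1qa had -0.85 after DZNep, -1.05 after UNC1999, -0.69 after UNC0642 and -0.30 after Romidepsin.

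Among 15 genes of phagocytic microglia, all were lower in fitted value after DZNep and after UNC1999, with 5 and 2 passing the test in the edgeR fits (9.72% and 0.101% of all genes were lower at that level). Lyz2, lysozyme of myeloid cells, was at 30.9 CPM ± 17.6 (SD, n = 4) in controls and 7.03 CPM ± 1.41 (n = 2) after DZNep (log2 fold change -2.09, adjusted p = 0.0157 by edgeR) and fell by 2.65 on the log2 scale after UNC1999 (adjusted p = 0.0408 by edgeR). Cst7, cystatin F, fell after UNC1999 (-2.39, adjusted p = 0.0377 by edgeR) and Apoe, which glia also express, after DZNep (-0.79). After UNC1999 both Lyz2 and Cst7 lost the call without any 1 library other than control replicate 3, and Lyz2 lost that after DZNep without either treated library. After UNC0642 and Romidepsin this list was mixed: 10 and 11 genes were lower, none passed, and Spp1, encoding osteopontin, had values of -0.51 and 1.38.

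Of 8 transcription factor genes of microglia, Cebpa (-1.03) and Runx1 (-0.89) fell after DZNep, as 9.72% of all genes did. Mef2c (1.09) and Mef2a (0.23), both also expressed in neurons, rose, as 12.9% of all genes did. Spi1, encoding PU.1, had -1.01 after DZNep and -2.42 after UNC1999 with edgeR adjusted p-values of 0.0762 and 0.0533, and -0.38 and -0.64 after UNC0642 and Romidepsin. Among 11 genes of signals to microglia, 10 of them tested, Csf1 (-0.47) and Il34 (-0.41), the 2 ligands of the Csf1r product, fell after DZNep, as did Cx3cl1 (-0.25), the ligand of the Cx3cr1 product, Cd200 (-0.20) and Tgfbr2 (-0.49). Sirpa rose (0.31). After UNC1999, UNC0642 and Romidepsin none of these 8 factors and 10 signals passed (edgeR quasi-likelihood test). In fitted value 6 of the 8 factors and 9 of the 10 signals were lower after UNC1999, 7 and 7 after UNC0642 and 5 and 6 after Romidepsin. Of 9 genes of other macrophages and monocytes, 5 of the 6 tested were lower in fitted value after DZNep (median -1.57) and 7 of 9 after Romidepsin (-0.66), and the rest were higher. Ms4a7 was the 1 that passed, with lower values after DZNep (-3.19) and Romidepsin (-2.51). At that level 9.72% and 0.174% of all genes were lower. Its counts in treated retinas were low, at most 6 after DZNep and 17 after Romidepsin. Leaving out 1 library at a time ended the call in 5 of 6 fits for Runx1 (all but control replicate 4) and Cd200 (all but control replicate 1) after DZNep. It ended the call for Ms4a7 after Romidepsin in 4 of 6 (all but control replicate 1 and treated replicate 2). Without DZNep treated replicate 1 the calls for Cebpa, Csf1, Il34, Mef2a, Sirpa and Ms4a7 were also lost, as were Cebpa without treated replicate 2 and Csf1 without control replicate 3.

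Rod transcripts were higher in treated groups, where most of the 9 genes were lower. Of 11 rod markers, 11 rose after DZNep, where 12.9% of all genes passed as higher. After UNC1999, UNC0642 and Romidepsin, 11, 10 and 10 had higher fitted values without passing the test. Summed, they were at 18360 to 30760 CPM in DZNep controls and 56060 and 57690 CPM after DZNep, while the 9 genes summed to 83.9 to 162.5 CPM and then to 76.5 and 76.1 CPM. In UNC1999 retinas the rod sum went from a range of 19620 to 37000 CPM to one of 49980 to 67840 CPM and the 9 genes went from 92.6 to 143.9 CPM to 54.8 to 68.5 CPM. The rod ranges were 15560 to 25350 and 24820 to 32740 CPM in the Romidepsin experiment. Within the DZNep controls the order was not opposite, since replicate 1 had the highest sum of both lists and replicate 4 the lowest. CPM are shares of a library, and inner neuron markers in the same libraries had median log2 fold changes of -0.24 after DZNep, 0.04 after UNC1999 and 0.03 after UNC0642. After DZNep, 5 of 10 inner neuron markers, 5 of 6 Müller glia markers (median -0.40), 3 of 6 vessel markers (-0.15) and 3 of 7 cone markers (-0.15) fell. By the same test 9.72% of all genes were lower after DZNep. RPE markers were also higher after both EZH2 inhibitors and UNC0642, with summed levels of 50.6 to 146.5 CPM in controls and 189.5 and 248.5 CPM after DZNep, and 104.3 to 120.9 CPM in controls and 344.9 to 398.2 CPM after UNC1999. By the edgeR quasi-likelihood test 4 of 7 RPE markers passed after DZNep, where 12.9% of all genes were higher at that level. Of the 7, 5 passed after UNC1999, where that share is not given here. There Rgr and Rdh5 ranked 1 and 2 by p among the 15775 genes tested. The RPE markers summed to 59.8 and 130.1 CPM in UNC0642 controls and 146.5 and 170.3 CPM after UNC0642 (5 of 7 higher in fitted value, median 0.63, none passing). Lens transcripts were high in DZNep treated replicate 2 (77 CPM over 6 genes, against at most 2.12 CPM in the other 5 libraries), yet the 9 genes summed to nearly the same level in both treated libraries. The part of these other cells in the results was not tested.

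**Figure D4:**
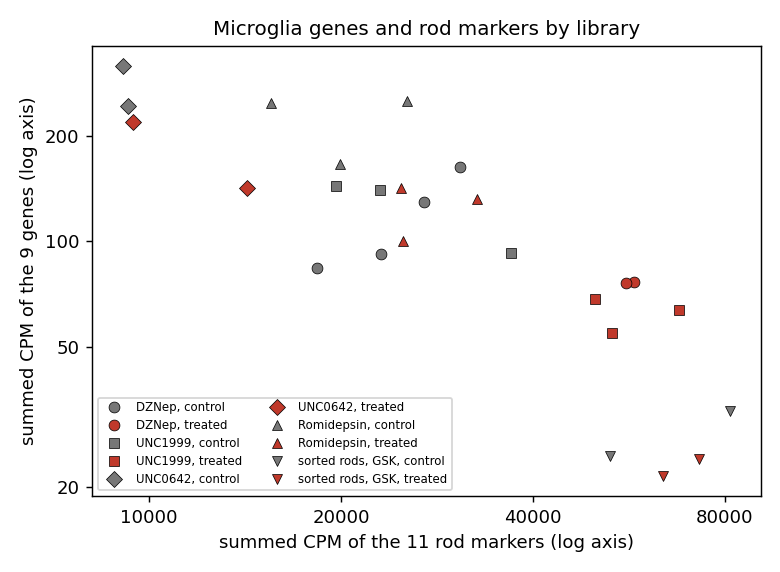
Summed CPM of the 9 genes against summed CPM of 11 rod markers in each of the 26 libraries, both on log axes, with controls in grey, treated libraries in red and a symbol for each experiment. Retinas treated with DZNep or UNC1999 lie to the right of and below their controls, UNC0642 controls are at the upper left, and sorted rods are at the lower right, with 21.5 to 33 CPM for the 9 genes.

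Sorted rods held few transcripts of the 9 genes other than Csf1r. Rod markers summed to 52870 to 81550 CPM in these 4 libraries. Cx3cr1 was at 0.936 and 1.41 CPM in controls (7 and 24 counts) and at 0.26 and 0.706 CPM (5 and 7 counts) after GSK2879552, against 15.6 to 48.2 CPM in control retinas. Emr1 had 3 and 4 counts in controls and 0 in both treated libraries, where a count of 0 allows up to 0.151 and 0.308 CPM (3 counts), so no fold is given. P2ry12 was at 0.936 and 2.69 CPM in controls and 1.46 and 1.31 CPM after GSK2879552, and overlapped at its highest with control retinas (2 to 10.1 CPM). Only Cx3cr1, P2ry12 and Csf1r passed the filter on low counts, and none of the 3 passed the edgeR quasi-likelihood test over 14478 genes, had an unadjusted p under 0.05 (2.13% of genes were lower at that level) or was called by the likelihood ratio test or DESeq2. Their log2 fold changes were -1.36 (SE 0.97), -0.43 (SE 0.77) and -0.19 (SE 0.30). The other 6 genes had at most 22 counts in any sorted library.

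Csf1r had the highest level of the 9 genes in sorted rods. It was at 18.2 and 26.8 CPM in controls and 21.2 and 18.5 CPM after GSK2879552, against 34.3 to 118 CPM in control retinas. The ratio of Csf1r to Cx3cr1 was 19 and 19.4 in sorted control rods and 26.1 and 81.4 in treated ones, against 1.38 to 2.6 in control retinas. In sorted rods it rests on 5 to 24 counts of Cx3cr1. The study's methods name another kit for sorted rods than the labels do, so the 2 materials are only set side by side. Csf1r (NCBIM37, chromosome 18, 61265226 to 61291803, plus strand) shares 871 of its 5229 exon bases with Hmgxb3 on the opposite strand. Hmgxb3 was at 61.8 to 72.8 CPM in sorted rods and at 54.8 to 62.4 CPM in control retinas. How many of the counts at Csf1r came from Hmgxb3 was not tested, so the level of Csf1r in any library is uncertain.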

How the data were processed

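Polyadenylated RNA of 22 whole retinas and 4 samples of sorted rods was sequenced; the kit was Illumina Stranded mRNA Prep per the labels of all samples, whereas the study's methods name SMART-Seq for sorted rods. The genotype and treatment labels carry numbers that rise from sample to sample, so groups were taken from the titles. The authors trimmed reads, aligned them with HISAT2 2.2.1 to NCBIM37 and deposited raw counts per Ensembl gene from HTSeq 0.11.2; whether by strand is not given in the sources used here. Totals were 13732959 to 36354094 counts in retinas and 7289460 to 19864491 in sorted rods, and intervals or floors from counts cover counting error only.

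From these counts, edgeR 4.0.16 (R 4.3.3) was used in each experiment: filterByExpr, TMM, quasi-likelihood F test of treated against control libraries and Benjamini-Hochberg adjustment over all genes tested. A gene passed at an adjusted p under 0.05 and was called with an absolute log2 fold change above 1 as well. CPM used TMM factors of the own experiment. Differences between treatments came from 1 fit to 22 retinas. As alternatives, DESeq2 1.42.0, edgeR's likelihood ratio test, RLE size factors, other filters on low counts, no fold threshold, a replicate block, 1 fit to all retinas and fits without each library were run. The pipeline was tested on simulated data. No replicate pair (23) agreed within sampling noise.

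The 9 genes and the other lists were chosen with earlier results of these data known. Listed genes are named by rank of p among those that passed, up to 3 a list, and others as examples chosen after their values were seen. Symbols and positions came from GENCODE M1 (NCBIM37). Promoters came from RefSeq. Whole retinas treated with GSK2879552 were not analysed here.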

Additional observations from a re-analysis of the deposited data

How the results depend on the processing

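Under the alternatives other than leaving out a library, no tested value of the 9 genes changed sign, whereas the number called changed. Leaving out a library did turn signs, as given below. Beyond the main fits, the share of all genes called was computed only for the likelihood ratio test and DESeq2 after UNC1999 and Romidepsin. The other numbers called therefore stand without that share. With all 22 retinas in 1 fit, 1 gene was called after DZNep, 5 after UNC1999 and 2 after Romidepsin. After UNC1999, where 1 was called, the likelihood ratio test called 6, DESeq2 6, leaving low-count genes in 5, a minimum of 10 counts per library 2 and the replicate block 0. After UNC0642, where none was called, no filter gave 1 and the replicate block 1. After Romidepsin, where none was called, the likelihood ratio test gave 2, DESeq2 2 and no filter 2. In sorted rods the median log2 fold change of -0.43 was -1.34 with no filter and -0.17 with the minimum of 10 counts. These medians are over different members: 3 passed the main filter, no filter kept all 9, and the minimum of 10 counts left Csf1r alone. The cause of the changed numbers called was not tested.

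Leaving out each library in turn, the number called ranged from 0 to 4 after DZNep, 0 to 6 after UNC1999 and 0 to 2 after Romidepsin (2 without control replicate 1 or treated replicate 1), and was 0 after UNC0642 and in sorted rods. Median log2 fold changes ranged from -0.75 to -0.38 after DZNep, -1.35 to -0.99 after UNC1999, -1.14 to -0.34 after UNC0642, -0.96 to -0.63 after Romidepsin and -1.27 to 0.12 in sorted rods (0.12 without control replicate 2). Signs turned for Siglech (-0.022 to 0.33) and P2ry12 (-0.14 to 0.0074) after DZNep, for Siglech (-0.25 to 0.33) and P2ry12 (-0.48 to 0.095) after UNC1999, for Tmem119 (-0.97 to 0.025) and Cx3cr1 (-0.62 to 0.07) after UNC0642, for P2ry12 (-0.95 to 0.56) and Csf1r (-0.43 to 0.12) in sorted rods, and for the lens gene Crybb2 after DZNep (-1.15 to 4.91). No difference between treatments passed in any of these fits.

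The labels do not say whether same-numbered samples were paired. Correlations of their deviations from group means were -0.279 to 0.23, and with so few libraries in a group they cannot settle it. The replicate block is therefore not read as a paired analysis. With it, Ptprc after DZNep had an adjusted p of 0.0537 and Cx3cr1 one of 0.0302 (edgeR). In the fit to 22 retinas, the adjusted p after DZNep was 0.072 for Fcrls and 0.142 for Ptprc. Depth limits Siglech, Aif1 and Ptprc most, with as few as 10, 11 and 16 counts in a treated retina.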
